A study of Mus musculus with 12 samples.

Results

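The genes of glucose production were followed in primary mouse hepatocytes: 10 genes that encode the enzymes and transporter particular to gluconeogenesis and the transaminases and dehydratase that feed amino acid carbon into it. They were chosen by name (Pck1, Pck2, G6pc, Fbp1, Pcx, Slc37a4, Tat, Sds, Got1 and Gpt). No measured value entered the rule, although earlier results of these data were known when they were chosen. Each gene was matched to the array through the RefSeq accession of its probes. Of the 10 genes, 9 had a matching probe, 1 probe each, among 41174 probes that were not controls and 24375 that could be given a symbol. Pck1, the cytosolic phosphoenolpyruvate carboxykinase, was not matched and is not analysed here. All 9 probes were among the 24965 that were tested, that is, clearly above background in each of the 3 arrays of 1 group or more.

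Hepatocytes were isolated by collagenase perfusion from C57BL/6 mice that carried the coactivator gene (PGC-1alpha+/+) or were labelled as lacking it (PGC-1alpha-/-). They were kept in medium with serum, 100 nM dexamethasone and 100 nM insulin, which all groups shared. Overnight infection with an adenovirus at a multiplicity of 5 delivered a control short hairpin RNA or a targeting one (the test hairpin), and RNA was taken 24 h after infection. There were 3 mice of each genotype, and each supplied a culture for either vector. The groups were +/+ control, +/+ test, -/- control and -/- test, with 3 one-colour arrays each. The labels number mice and independent assays 1 to 3, and the 4 arrays of a number shared a slide. No age or sex of the mice is used here, and the wild-type and mutant mice of a number are different animals. The design asks how these genes respond to the test hairpin, to the genotype, and to both.

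Gluconeogenesis makes glucose from lactate, glycerol and amino acids, and in the liver it keeps blood glucose up during fasting. Pyruvate carboxylase (Pcx) and phosphoenolpyruvate carboxykinase (Pck1, Pck2) carry pyruvate past pyruvate kinase, fructose-1,6-bisphosphatase (Fbp1) bypasses phosphofructokinase, and glucose-6-phosphatase (G6pc) with its transporter (Slc37a4) releases free glucose. Glucagon through cAMP, glucocorticoids and PGC-1alpha are known to raise transcription of some of these genes, Pck1 and G6pc among them, and insulin to lower it.

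The promoter windows of 3 members are shown. The G6pc response had opposite signs in different numbers. Pck2 and Slc37a4 were the members with an adjusted p under 0.05 in a paired fit of all 12 arrays. The windows run from 250 bases before to 50 after the RefSeq start on build GRCm38.p6, all on the plus strand, and 8 of the 10 members had at least 1. Capitals mark TGTTTTG, the core of an insulin response sequence, TATAAA, a core promoter element bound by the TATA-binding protein, and TGACG, the core of a cAMP response element, which reads CGTCA on the other strand. G6pc lies at chr11:101367466-101367765, Pck2 at chr14:55540016-55540315 and the window of Slc37a4 with the most matches, the second of its 3, at chr9:44396849-44397148.
G6pc: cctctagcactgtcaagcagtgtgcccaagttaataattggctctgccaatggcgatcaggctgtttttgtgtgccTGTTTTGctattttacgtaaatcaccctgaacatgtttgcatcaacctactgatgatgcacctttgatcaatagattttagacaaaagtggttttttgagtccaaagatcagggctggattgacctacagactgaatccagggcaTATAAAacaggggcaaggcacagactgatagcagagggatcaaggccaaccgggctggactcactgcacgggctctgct
Pck2: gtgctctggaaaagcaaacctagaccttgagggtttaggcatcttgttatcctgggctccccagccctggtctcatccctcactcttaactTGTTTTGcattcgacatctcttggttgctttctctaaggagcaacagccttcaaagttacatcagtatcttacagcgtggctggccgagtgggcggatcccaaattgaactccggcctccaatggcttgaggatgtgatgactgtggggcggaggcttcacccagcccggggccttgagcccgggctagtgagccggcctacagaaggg
Slc37a4: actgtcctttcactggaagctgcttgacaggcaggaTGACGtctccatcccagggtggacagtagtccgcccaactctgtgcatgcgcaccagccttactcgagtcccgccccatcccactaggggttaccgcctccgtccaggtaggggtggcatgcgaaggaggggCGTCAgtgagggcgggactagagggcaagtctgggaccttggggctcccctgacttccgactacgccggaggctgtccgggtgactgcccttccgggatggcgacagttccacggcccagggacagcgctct
TGTTTTG began at -174 in G6pc and at -159 in Pck2, counted from the start, and no other member window held it. It was found in 6.28% of all 32851 windows of the table. TATAAA lay at -29 in G6pc and at -32 in the third window of Slc37a4, and 13.62% of all windows held it. TGACG lay at -214 and -82 in the window of Slc37a4 shown, at -61 in its first window, which overlaps the second, and at -90 in Pck1, against 20.81% of all windows. AAGGTCA, the site of estrogen-related receptors, lay at -245 in Got1 and was in 4.72% of all windows. Both strands were searched. TGACGTCA, the full cAMP response element that contains TGACG, was in 0 of 11 member windows and in 1.79% of all. GTAAACA (forkhead core), CAAAGTCCA (HNF4) and AGAACA (glucocorticoid receptor core) were also in 0 of 11, against 3.65%, 0.47% and 18.97% of all windows. A match of letters is a description and shows no binding.

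Values are the log2 values of the authors' table, and a difference of 1 on this scale is a factor of 2. An array had 22706 to 26680 probes clearly above background. Ppargc1a, the gene of PGC-1alpha, read 9.21 ± 1.09 (SD, n = 3) in +/+ control and 9.38 ± 0.34 (n = 3) in -/- control cells. Its probe was well above background on every array of both genotypes, and the part of the gene it reads relative to the deletion is not given in the sources used here. It therefore does not check the genotype labels, and genotypes below are those of the labels. The hepatocyte markers measured, 10 of 12, were all above background on all 12 arrays.

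The test hairpin went with lower Slc37a4 and Pck2 when cultures of a mouse were compared as pairs, in fits that called many probes of the array. No member passed in the unpaired fit of group means of the authors' quantile-normalized values. In the fit of group means 0 of 9 members had an adjusted p under 0.05 in +/+ cells, where 0.989% of all tested probes did, 0 of 9 in -/- cells (0.773% of all) and 0 of 9 averaged over genotypes (7.78% of all). At an unadjusted p under 0.05, 2 of 9 passed in +/+ (16.3% of all probes did), 0 in -/- (11.8%) and 2 averaged (27.9%). Both were Slc37a4 and Pck2. The labels tie each pair of cultures to 1 mouse, and with the replicate number as a block these 2 members were called in +/+ cells and averaged, against 12.5% and 28.8% of all probes. In -/- cells 0 of 9 were called (5.86% of all). With the mouse as the block the same 2 members were called in +/+ cells (15.8% of all probes) and averaged (32.8%), and 0 of 9 in -/- cells (8.04%). A count of 2 of 9 does not set the members apart from these shares. Leaving aside Sds, which was not above background in +/+ test cells, 7 of 8 differences were negative in +/+ cells (median -0.50, against -0.014 over all tested probes). That count and median rested on +/+ control 1, without which 4 of 8 were negative and the median was -0.012. Among -/- cells 5 of the same 8 were negative (median -0.28, against -0.031), and with Sds 6 of 9 (median -0.40). The median of the 8 was -0.16 without -/- control 1 and -0.12 without -/- test 3.

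**Figure D1:**
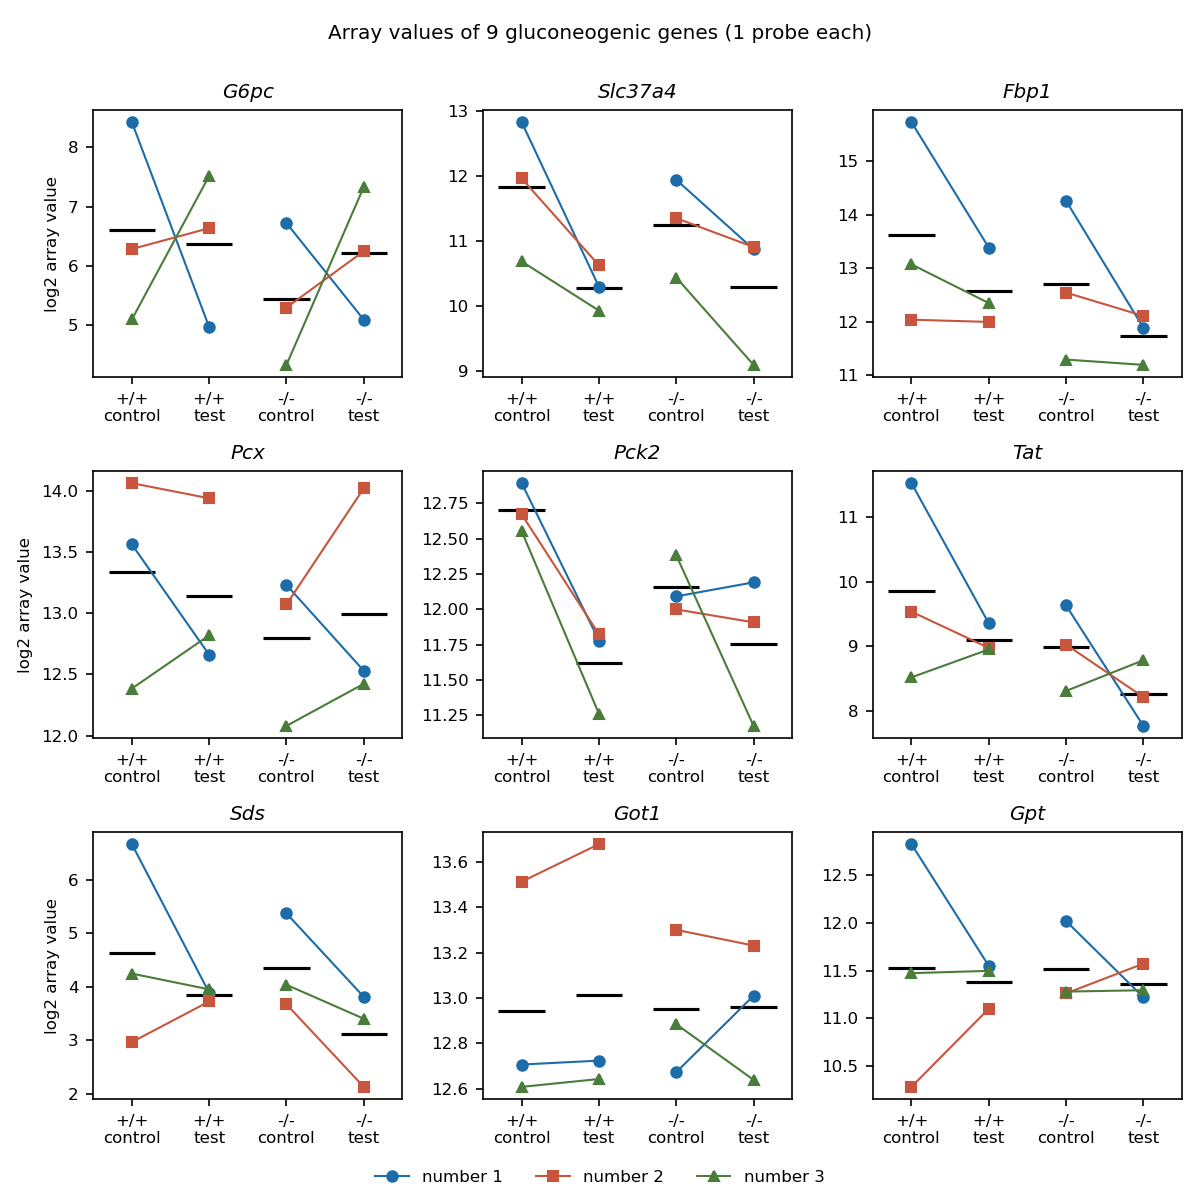
Log2 array value of each of the 9 genes in the 4 groups (x axis: genotype and hairpin). Points are single arrays, lines join the 2 cultures of a mouse, colour and shape give the replicate number, and black bars are means of 3 arrays. All 6 lines go down for Slc37a4 and for Fbp1, and in both genotypes the lines of G6pc cross, going down for number 1 and up for numbers 2 and 3.

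Slc37a4 encodes the transporter that brings glucose 6-phosphate to the phosphatase in the endoplasmic reticulum. It read 12.82, 11.96 and 10.68 in +/+ control cells for numbers 1 to 3 and 10.29, 10.62 and 9.92 in +/+ test cells. In -/- cells it read 11.94, 11.35 and 10.43 for the control hairpin, against 10.87, 10.90 and 9.09 for the test hairpin. The +/+ groups did not overlap and the -/- groups did, and every culture with the test hairpin was below the control culture of the same mouse, with differences of -2.54 to -0.44. Only Slc37a4 and Fbp1 of the 9 members were lower in all 6 pairs, and 19.1% of all probes were. The difference in +/+ cells was -1.54 (95% interval -2.93 to -0.16, limma adjusted p = 0.263, and 0.0205 with the replicate number as a block). In -/- cells it was -0.95 (adjusted p = 0.576, and 0.121 with the block). Averaged over genotypes it was -1.25 (SE 0.44, adjusted p = 0.102), and with the block Slc37a4 fell, at an adjusted p of 0.00567.

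Pck2, the mitochondrial phosphoenolpyruvate carboxykinase, was tight within +/+ cells. It read 12.89, 12.67 and 12.55 for the control hairpin, against 11.78, 11.82 and 11.26 for the test hairpin, and these groups did not overlap. In -/- cells it read 12.09, 11.999 and 12.38 against 12.19, 11.91 and 11.17, and the groups overlapped because number 1 was slightly higher under the test hairpin. The difference was -1.09 in +/+ cells (SE 0.30, limma adjusted p = 0.131, and 0.0289 with the replicate number as a block) and -0.40 in -/- cells (adjusted p = 0.618, and 0.371 with the block). The difference between these responses was 0.69 (95% interval -0.25 to 1.62) and did not pass (adjusted p = 1.00). Averaged over genotypes Pck2 was lower by a factor of 1.67 (adjusted p = 0.0574), and with the block it fell, at an adjusted p of 0.0169. Among the 9 members, Pck2 and Slc37a4 were the 2 without overlap and lower in +/+ test cells (9.62% of all probes were), and 0 of 9 were so in -/- cells (9.41% of all).

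These paired results differed in how much they rested on single arrays. Averaged over genotypes, the block fit called both Slc37a4 (adjusted p 0.00381 to 0.0187) and Pck2 (0.0224 to 0.0442) whichever of the 12 arrays was left out. In +/+ cells alone it called neither without +/+ control 1, +/+ test 1 or +/+ test 2, and Slc37a4 but not Pck2 without +/+ control 3 or +/+ test 3.

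Fbp1, which makes fructose 6-phosphate, had 1 array far above the others. It read 15.73, 12.03 and 13.07 in +/+ control, 13.38, 11.99 and 12.35 in +/+ test, 14.26, 12.54 and 11.29 in -/- control and 11.88, 12.10 and 11.19 in -/- test cells. Number 1 differed by -2.35 in +/+ and -2.38 in -/- cells, and the other 4 pairs by -0.042 to -0.73. The mean difference was -1.04 in +/+ (95% interval -3.06 to 0.99) and -0.97 in -/- (-3.00 to 1.05), with limma adjusted p of 0.591 and 0.689. Without +/+ control 1 the difference in +/+ cells was 0.022.

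Pcx, which makes oxaloacetate from pyruvate and so opens the pathway, differed little between vectors. It read 13.56, 14.06 and 12.39 in +/+ control and 12.66, 13.94 and 12.82 in +/+ test cells, and 13.23, 13.07 and 12.08 in -/- control and 12.53, 14.02 and 12.42 in -/- test cells. The groups overlapped in both genotypes. The difference was -0.20 in +/+ (95% interval -1.46 to 1.07) and 0.20 in -/- cells (-1.07 to 1.47). These intervals leave room for more than a 2-fold change either way.

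G6pc, the catalytic subunit of glucose-6-phosphatase, moved in opposite directions in different numbers. It read 8.43, 6.29 and 5.10 in +/+ control and 4.97, 6.64 and 7.52 in +/+ test cells, and 6.73, 5.30 and 4.34 in -/- control and 5.10, 6.25 and 7.33 in -/- test cells. Under the control hairpin number 1 was highest and number 3 lowest in both genotypes, and under the test hairpin the order was the reverse. The pairs differed by -3.46, 0.35 and 2.42 in +/+ and by -1.63, 0.95 and 3.00 in -/- cells for numbers 1 to 3. The mean difference was -0.23 in +/+ (95% interval -2.34 to 1.88, limma adjusted p = 0.925) and 0.77 in -/- cells (-1.34 to 2.89, adjusted p = 0.765). Of the spread of G6pc over the 12 arrays, 84.0% lay in the term of vector by number, against a median of 7.37% over all tested probes. The named genes outside the list whose values over the 12 arrays were most like those of G6pc, among 12786 genes by Pearson correlation, were Arrdc3 (r = 0.844), Txlng (r = 0.842) and Slc3a1 (r = 0.841). These arrays share mice and slides, and the correlations are given as a description.

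**Figure D2:**
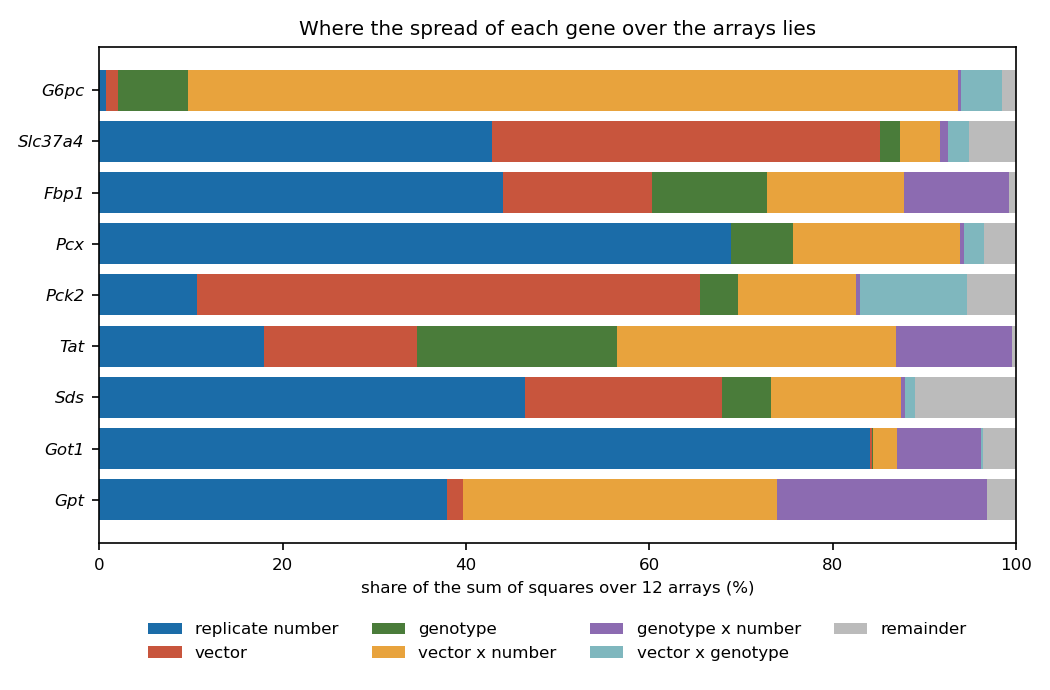
Share of the sum of squares over the 12 arrays (x axis, in %) that lies in each term of genotype, vector and replicate number, for each of the 9 genes; with 1 array per cell, the remainder is the term of all 3 together. Got1 (84.0%) and Pcx (69.0%) lie mostly in the number, G6pc in vector by number (84.0%), and Pck2 mostly in the vector (54.8%).

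The enzymes that bring in amino acid carbon did not pass either. Tat, tyrosine aminotransferase, a classical target of glucocorticoids in liver, read 11.53, 9.54 and 8.52 in +/+ control, 9.36, 8.98 and 8.95 in +/+ test, 9.63, 9.03 and 8.31 in -/- control and 7.77, 8.21 and 8.79 in -/- test cells. Numbers 1 and 2 were lower under the test hairpin in both genotypes and number 3 was higher in both. The difference was -0.77 in +/+ (95% interval -2.19 to 0.65) and -0.73 in -/- cells (-2.15 to 0.68), with limma adjusted p of 0.572 and 0.667. Without +/+ control 1 the first was 0.066.

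Sds, serine dehydratase, which turns serine into pyruvate, was near the background. It was well above it on 2 of 3 arrays in +/+ control, 0 of 3 in +/+ test, 3 of 3 in -/- control and 1 of 3 in -/- test cells. It read 6.67, 2.96 and 4.25 in +/+ control and 3.89, 3.73 and 3.95 in +/+ test cells, and 5.37, 3.67 and 4.04 in -/- control and 3.81, 2.12 and 3.40 in -/- test cells. For +/+ test cells the lowest signal well above background on each array was taken as a floor. The mean of the +/+ control values, which includes an array not above background, was 1.67-fold that floor. The measured difference did not pass (95% interval -2.57 to 1.02, limma adjusted p = 0.657). The higher control mean rested on +/+ control 1, at 6.67, and without that array the difference was 0.25, so no direction is read from it. In -/- cells the difference was -1.25 (95% interval -3.04 to 0.55, adjusted p = 0.571), and all 3 pairs were lower. The -/- control group was the only one that brought Sds into the test, so no direction is read from this difference either.

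Within each genotype, the aspartate and alanine transaminases Got1 and Gpt gave the smallest differences of the 9 members. Got1 read 12.71, 13.51 and 12.61 in +/+ control and 12.72, 13.68 and 12.64 in +/+ test cells, and 12.67, 13.30 and 12.88 in -/- control and 13.01, 13.23 and 12.64 in -/- test cells. Number 2 was the highest in every group. The differences of Got1 were 0.073 in +/+ (95% interval -0.72 to 0.87) and 0.0076 in -/- cells (-0.79 to 0.80). Under quantile normalization a 2-fold change was therefore outside both intervals. Scaled to the spike-in controls (below), the Got1 intervals were -1.71 to 0.13 and -1.72 to 0.13, which hold a 2-fold fall. Gpt read 12.82, 10.28 and 11.47 in +/+ control and 11.55, 11.10 and 11.50 in +/+ test cells, and 12.02, 11.26 and 11.28 in -/- control and 11.22, 11.57 and 11.30 in -/- test cells. Its differences were -0.14 (-1.28 to 1.00) and -0.16 (-1.30 to 0.98), and it was lower under the test hairpin in number 1 alone in both genotypes.

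**Figure D3:**
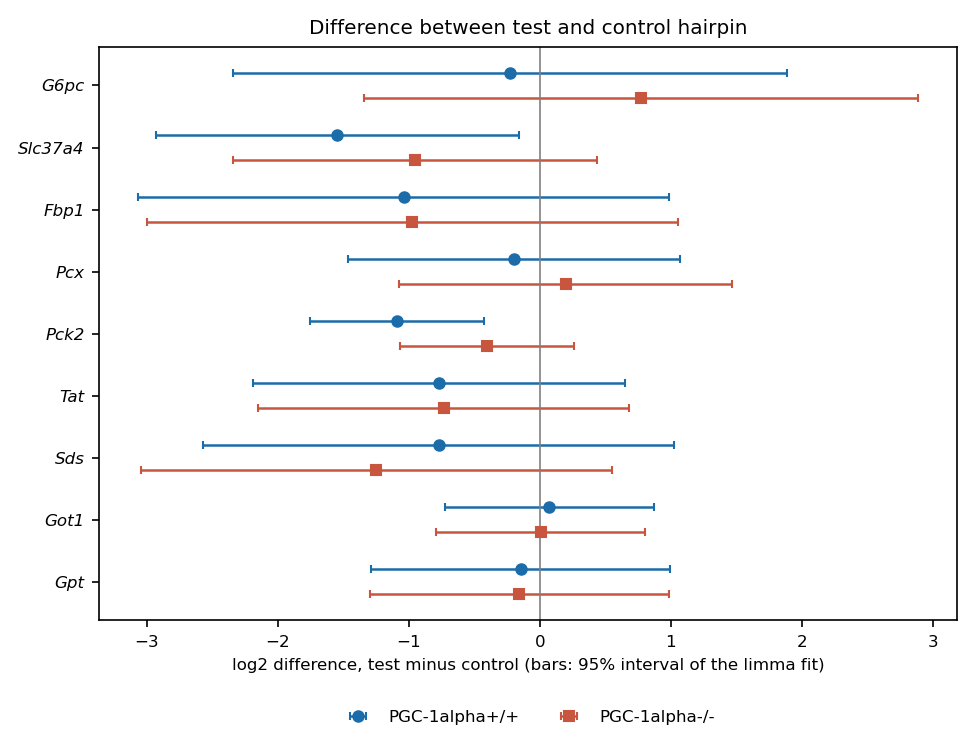
Log2 difference between test and control hairpin (x axis, test minus control) of each gene in +/+ and -/- cells; points are differences of group means of 3 arrays each and bars the 95% intervals of the limma fit. In +/+ cells the intervals of Slc37a4 (-2.93 to -0.16) and Pck2 (-1.75 to -0.42) leave out 0, before adjustment for the number of probes, and in -/- cells every interval holds it. Sds was not above background in +/+ test cells.

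The scaling between arrays set the size of these differences. Before normalization the 75th percentile of the signal was 810.4 to 1064 on control and 344 to 635 on test arrays, so the test arrays were dimmer. Quantile normalization, as in the authors' table, gives all arrays the same distribution. Scaled instead to the spike-in control probes of the arrays, the median of all probes lay at -0.82 averaged over genotypes. With that scaling 7 of 9 members were lower with an adjusted p under 0.05, all but G6pc and Pcx, and 55.8% of all probes were called in either direction. The 7 include Sds (-1.65), which was near background and was tested only through the -/- control group, so no fall is read from it. Relative to the shift, Slc37a4 (-2.14), Fbp1 (-1.79), Tat (-1.63), Pck2 (-1.61) and, by less, Gpt (-1.01) were lower. Pcx (-0.82) and Got1 (-0.79) lay near it, and G6pc (-0.46) lay above it. Under quantile normalization 58.2% of the probes called in the averaged comparison were higher, under 75th percentile scaling 73.8% and under spike-in scaling 4.94%. The small positive differences of Got1 in both genotypes and of Pcx in -/- cells were negative with spike-in scaling.

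The summed cholangiocyte, macrophage and stellate cell markers were each lower under the test hairpin in every pair. The summed endothelial markers were not. The summed signal of the cholangiocyte list was 40557 to 142459 in +/+ control and 18955 to 44211 in +/+ test cells, and 49272 to 215014 in -/- control and 18516 to 62274 in -/- test cells. Spp1 was the brightest gene of the list on every array and made up most of this sum. On +/+ control 1 it read 17.05, against 12.41 for Krt19. In the averaged comparison 4 of the 6 differences were negative, and those of Epcam and Cftr were positive. Of its 6 genes 0 were called by limma in the averaged comparison (3 at an unadjusted p under 0.05, against 27.9% of all probes). The paired fit, in which 28.8% of all probes were called, put 3 lower, namely Spp1 (-1.61), Krt19 (-2.11) and Krt7 (-1.26), as were 3 of 11 macrophage markers, Marco (-2.41), Cd5l (-1.93) and Clec4f (-1.71), a share near that of all probes. Clec4f was dim on some arrays and read as low as 1.32. The summed stellate cell markers were 12747 to 18634 in +/+ control and 9639 to 12622 in +/+ test cells. In -/- cells their sums were 12037 to 39656 with the control and 8883 to 37609 with the test hairpin, and 0 of 6 were called averaged. The summed endothelial markers were 1723 to 3402 in +/+ control and 1468 to 3638 in +/+ test cells. In -/- cells they were 2075 to 5903 with the control and 2176 to 10345 with the test hairpin, and 0 of 8 were called averaged. In bulk RNA, fewer cells of a type and less RNA per cell cannot be told apart, and the part of such shifts in the values above was not tested. The summed hepatocyte markers were 321417 to 726043 in +/+ control, 369307 to 424719 in +/+ test, 321780 to 596132 in -/- control and 287479 to 344721 in -/- test cells.

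The highest hepatocyte sum lay on the array of +/+ control 1, which also held the highest of the 12 values for 7 of 9 members (Tat, Sds, Slc37a4, Gpt, G6pc, Fbp1 and Pck2). Of all tested probes, 13.3% were highest on that array. Without it the difference between hairpins in +/+ cells was -1.04 for Slc37a4 and -0.99 for Pck2, and it turned positive for G6pc (0.68) and Gpt (0.50), beside Fbp1 and Tat as given above. For Got1 it turned negative (-0.046).

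The genotype gave no call among these genes. In -/- against +/+ cells 0 of 9 members had an adjusted p under 0.05 with the control hairpin (0.0801% of all probes did), with the test hairpin (0.0721%) and averaged over vectors (0.0881%), and also 0 of 9 at an unadjusted p under 0.05 (3.14%, 2.16% and 2.76% of all probes). With the replicate number as a block it was 0 of 9 in each, against 0.172%, 0.156% and 0.505% of all probes. With the control hairpin 8 of 9 differences were negative, from -1.15 for G6pc to 0.00999 for Got1, with a median of -0.55 against 0.014 over all tested probes. Without +/+ control 1 it was 6 of 9, with a median of -0.081, and without -/- control 3 it was 7 of 9, with a median of -0.18. Averaged over vectors the 8 members other than Sds were all negative (6 of 8 without +/+ control 1), from -0.88 for Fbp1 to -0.013 for Gpt, and Gpt (0.066) and Got1 (0.042) were positive with spike-in scaling.

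G6pc differed by -1.15 with the control hairpin (95% interval -3.26 to 0.96, limma adjusted p = 1.00) and was lower in -/- cells in each number, with differences of -1.70 to -0.77. Pck2, at -0.55 (-1.21 to 0.11), was the 1 member whose -/- control values all lay below the +/+ control values, against 3.95% of all probes. Under the test hairpin Pck2 differed by 0.14 (-0.53 to 0.80). Slc37a4 differed by -0.58 with the control hairpin (-1.97 to 0.80) and by 0.0085 with the test hairpin (-1.38 to 1.39). Tat differed by -0.87 with the control hairpin and -0.84 with the test hairpin, and under the test hairpin it was the 1 member without overlap, lower in -/- cells (2.79% of all probes were). Fbp1 differed by -0.92 and -0.85, with intervals of -2.94 to 1.11 and -2.88 to 1.18. Pcx differed by -0.54 and -0.15. Sds differed by -0.27 with the control hairpin, and with the test hairpin it is not compared, since no +/+ array was well above background. Without +/+ control 1 the differences with the control hairpin were -0.24 for G6pc, -0.46 for Pck2, -0.081 for Slc37a4, -0.43 for Pcx, -0.038 for Tat, 0.14 for Fbp1, 0.76 for Sds, -0.11 for Got1 and 0.64 for Gpt.

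**Figure D4:**
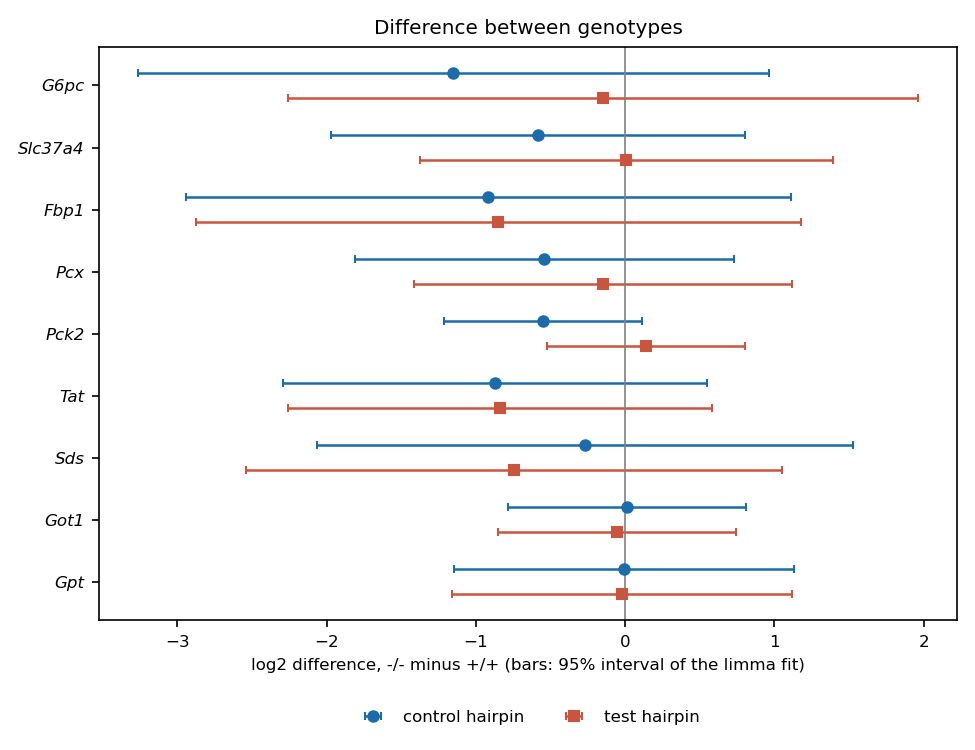
Log2 difference between genotypes (x axis, -/- minus +/+) of each gene with the control hairpin and with the test hairpin; points are differences of group means of 3 arrays each and bars the 95% intervals of the limma fit. Every interval holds 0, and the widest are those of G6pc, from -3.26 to 0.96 with the control hairpin, and of Fbp1; with the test hairpin no +/+ value of Sds was above background.

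No macrophage marker was called between the genotypes, although their summed signal was higher in -/- cells in every number. All 11 that were tested had higher means in -/- than in +/+ cells with the control hairpin (median difference 2.54) and with the test hairpin (1.43), and 0 of 11 were called by limma (1 and 0 at an unadjusted p under 0.05), nor with the replicate block. Their summed signal was 6866 to 17347 in +/+ control and 12548 to 88819 in -/- control cells, and for number 3 it was 10294 against 12548. Under the test hairpin it was 5499 to 11626 in +/+ and 8520 to 30452 in -/- cells. The sums of endothelial markers were 1723 to 3402 and 2075 to 5903 in the control groups, and those of stellate cell markers 12747 to 18634 and 12037 to 39656, with Lrat and Des not tested. Their part in the genotype differences of the members was not tested.

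The response to the test hairpin could not be told to differ between the genotypes for any member. The difference of the responses (in -/- minus in +/+) ran, over the 8 members other than Sds, from -0.065 for Got1 to 1.00 for G6pc, whose 95% interval was -1.99 to 3.99. In limma 0 of 9 members and 0% of all probes had an adjusted p under 0.05, also with the replicate number as a block, and at an unadjusted p under 0.05 it was 0 of 9 members and 66 probes.

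Most of the rest of the pathway also stayed below the threshold, and the few genes that passed did so in the comparison of hairpins averaged over genotypes. The list of steps shared with glycolysis, which also holds the isozymes Fbp2 and G6pc3, had 1 of 11 lower and 0 higher. All 11 differences were negative (median -0.33, against -0.021 over all tested probes). The 1 gene was G6pc3, the widely expressed glucose-6-phosphatase, which fell by 1.45 on the log2 scale (SE 0.37, limma adjusted p = 0.0406). It read 8.58 to 9.70 in +/+ control, 7.12 to 7.73 in +/+ test, 8.36 to 9.66 in -/- control and 6.79 to 8.54 in -/- test cells.

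Genes for the entry of lactate, pyruvate, glycerol and fructose gave 0 of 12, and 3 at an unadjusted p under 0.05 in limma (27.9% of all probes). Genes for the entry of amino acids gave 1 of 20 lower, Slc38a3, a glutamine transporter, which fell by 1.04 (limma adjusted p = 0.0164). The opposing glycolytic steps gave 1 of 10 lower, Gckr, the regulatory protein of glucokinase, which fell by 1.01 (adjusted p = 0.0495). Among the regulators of gluconeogenic transcription 1 of 25 tested was lower and 0 higher. It was Cebpa, a liver transcription factor, which fell by 1.06 (adjusted p = 0.0237) and read 8.71 to 9.53 in +/+ control, 8.11 to 8.35 in +/+ test, 8.99 to 9.46 in -/- control and 7.39 to 8.49 in -/- test cells. Of the hepatocyte markers 1 of 10 was lower, Ass1, an enzyme of the urea cycle, at -0.65 (adjusted p = 0.0442). These shares lie near the 7.78% of all probes called.

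The call of Slc38a3 held whichever of the 12 arrays was left out. That of Cebpa was lost without -/- control 2, +/+ control 1 or +/+ test 3 (adjusted p up to 0.0677). That of G6pc3 was lost without -/- control 1 or 2, -/- test 2 or 3, +/+ control 1, or +/+ test 2 or 3 (up to 0.105), and without a filter on dim probes (0.0700). The call of Gckr held only without -/- control 3, -/- test 2 or +/+ control 2 (otherwise up to 0.123), and was lost without a filter (0.0729). That of Ass1 held only without +/+ test 2 (otherwise up to 0.113), and was lost with 75th percentile scaling (0.0625).

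With the replicate number as a block, where 28.8% of all probes were called in the averaged comparison, more genes of these lists passed, and they are named here after their values were seen. For the entry of amino acids 4 of 20 fell: the amino acid transporters Slc38a4 (-1.33), Slc7a2 (-1.08) and Slc38a3 (-1.04), and Gpt2 (-0.96), the mitochondrial alanine transaminase. Among the regulators 4 of 25 fell: Klf15 (-1.43), a factor known to raise amino acid use in liver, Irs1 (-1.24), an adaptor of the insulin receptor, Cebpa (-1.06) and the acetyltransferase Kat2a (-0.60). Of the opposing glycolytic steps Gckr (-1.01) and Pdk2 (-0.70) fell and Pdk4 (1.27) rose, both of the latter being kinases that switch off pyruvate dehydrogenase. With spike-in scaling Pdk4 was at 0.41 and not called (adjusted p = 0.296). For the entry of lactate and glycerol, Mpc1 (-0.43), a subunit of the mitochondrial pyruvate carrier, fell and Aqp9 (0.64), the glycerol channel, rose, although with spike-in scaling Aqp9 was at -0.23. Of the steps shared with glycolysis G6pc3 alone passed, as before. Of the hepatocyte markers Apob (-0.94) and Ass1 (-0.65) fell. No list held a larger share of called genes than all probes did, apart from the opposing steps (3 of 10) and the cholangiocyte markers (3 of 6).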

How the data were processed

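Total RNA of 12 cultures was hybridized by the authors to 1-colour Agilent arrays, 1 slide per replicate number. Each place on a slide always held the same group, so effects of place and of group cannot be told apart. Array files deposited by the authors hold background-subtracted spot intensity (Feature Extraction 10.1.1.1, per the submitters' processing notes), and other columns with flags per spot, per the file headers. The deposited table holds log2 values that the authors made by raising signals below 1 to 1 and by quantile normalization, per the labels; recomputed values correlated with it by at least 0.99997. The submitters' notes name limma without a version.

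Symbols came from RefSeq accessions (GRCm38.p6); 16799 of 41174 probes had none. Tests used limma 3.58.1 in R 4.3.3 with group means on 12 arrays (8 residual and 2.91 prior degrees of freedom), two-sided, with Benjamini-Hochberg adjustment over 24965 probes in each of 7 comparisons. Probes counted as called had an adjusted p under 0.05. In the comparison of genotypes over both vectors the mouse was a random effect (consensus correlation 0.584). With 3 arrays against 3, precision is limited by their number.

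The labels give the mouse of each culture. Arrays that share a number had deviations from their group means with correlations of 0.216 to 0.670, and other arrays -0.552 to 0.104, so the numbers pair the samples. The replicate block, the mouse block, other scalings, filters and backgrounds and each array left out were alternatives.

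Members and lists were chosen with earlier results of these data known. Named are all members and Ppargc1a, of each other list at most the 4 largest called genes per comparison, and the 3 genes most correlated with G6pc. The target of the test hairpin is not reported here.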

Additional observations from a re-analysis of the deposited data

How the results depend on the processing

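With 3 arrays per group, 0 members were called in the fit of group means. The count of members called for the test hairpin in +/+ cells became 2 with the replicate block, the mouse block or spike-in scaling. Averaged over genotypes it became 1 with 75th percentile scaling, 1 with normexp, 2 with the replicate block, 2 with the mouse block and 7 with spike-in scaling, and ran from 0 to 1 with each array left out. With the replicate block and each array left out, chosen after seeing the data, it ran from 0 to 2 in +/+ cells and from 2 to 4 averaged. Averaged counts above 2, and the 7 with spike-in scaling, included Sds. The paired fit with the replicate block changed no other call among the members.

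Signs changed for differences that the fit of group means of the quantile-normalized values did not call. Averaged over genotypes, spike-in scaling turned the test hairpin's difference of Got1 from 0.040 to -0.79, which was called (limma adjusted p = 0.0410). It also turned G6pc from 0.27 to -0.46 and Pcx from 0.00027 to -0.82, neither of them called. With spike-in scaling the test hairpin's difference became -0.79 for Got1 and -0.85 for Ppargc1a in +/+ cells and -0.59 for Pcx and -0.80 for Got1 in -/- cells, and the genotype difference of Gpt 0.015 with the control hairpin and 0.066 averaged. With 75th percentile scaling Got1 gave -0.011 between genotypes with the control hairpin, and with normexp the Sds difference of responses was 0.050. With each array left out, the test hairpin's difference in +/+ cells ran from -0.98 to 0.68 for G6pc, -1.83 to 0.022 for Fbp1, -0.67 to 0.17 for Pcx, -1.44 to 0.066 for Tat, -1.60 to 0.25 for Sds, -0.26 to 0.36 for Got1, -0.77 to 0.50 for Gpt and -0.72 to 0.70 for Ppargc1a. In -/- cells it ran from -0.32 to 0.48 for Pcx, -0.13 to 0.18 for Got1 and -0.29 to 0.092 for Gpt. The genotype difference with the control hairpin ran from -1.71 to 0.14 for Fbp1, -1.10 to 0.76 for Sds, -0.16 to 0.30 for Got1, -0.63 to 0.64 for Gpt and -0.33 to 0.75 for Ppargc1a, with the test hairpin from -0.079 to 0.43 for Pck2, averaged from -0.28 to 0.28 for Gpt, and the Sds difference of responses from -1.50 to 0.36. Signals near background limit Sds, so no direction is read from its differences between hairpins in either genotype.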
